A study of Rattus norvegicus with 18 samples.

Results

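The 9 genes described here make, carry, bind and sense retinoic acid, the active derivative of vitamin A, and were followed in dorsal root ganglia (DRG) of adult rats. They were taken by symbol from the series count table, in which they are 9 of 15075 RefSeq identifiers: Rbp4, Stra6, Aldh1a1, Aldh1a2, Aldh1a3, Crabp1, Crabp2, Rara and Rarb. Each symbol had 1 identifier in the table. The set was chosen by the Aldh1a1 counts of the injured and naive rats, which were lower after injury, so the Aldh1a1 group differences are given as a description, without a test. The other 8 genes were added for their roles in the pathway, but earlier results of these data were known at that time. Their p-values therefore do not come from a set chosen blind to the data.

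Poly(A) RNA was sequenced from ganglia of the C6 to C8 segments of Lister Hooded rats. Both corticospinal tracts were cut in the medullary pyramids (bilateral pyramidotomy, bPYX), which does not cut the axons of DRG neurons. The forelimb flexors of one side then received an adeno-associated virus of serotype AAV1. The naive group had neither operation nor virus. The bPYX+GFP group received a virus encoding green fluorescent protein under the CMV promoter, and the bPYX+NT3 group one encoding human neurotrophin-3 (NT3), a growth factor for muscle afferents, under the same promoter. No group was injured without virus, and none received virus without injury, so the effects of injury and of virus cannot be told apart against naive rats. The injured rats were killed 10 weeks after surgery. Each group held 6 rats, and the ganglia of the treated side were pooled within a rat, not between rats. Whole ganglia were homogenized, so that neurons, glia, connective tissue and vessels all contributed, and a smaller share of a cell type cannot be told apart from less RNA per cell.

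Retinoic acid is made from retinol by successive oxidation steps, of which the retinaldehyde dehydrogenases Aldh1a1, Aldh1a2 and Aldh1a3 carry out the last. Retinol travels in blood bound to Rbp4 and can enter cells through the membrane receptor Stra6. Inside the cell, Crabp1 and Crabp2 bind retinoic acid, and the nuclear receptors Rara and Rarb, paired with a retinoid X receptor, bind it to change transcription from DNA elements in target genes. In the nervous system retinoic acid is known for patterning the developing spinal cord and for effects on neurite growth, and Rarb is both a receptor and a target gene of the pathway.

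The promoters of Aldh1a1 and Rarb are shown because their log2 differences from naive were the lowest of the 9 genes in bPYX+GFP rats. The sequences are RefSeq's, from the rat assembly GRCr8, which is not the build the counts were made on. Both lines give the 250 bases before the start that RefSeq lists, 5′ to 3′ on the plus strand, at chr1:227537370-227537619 for Aldh1a1 and chr15:11336142-11336391 for Rarb.
Aldh1a1: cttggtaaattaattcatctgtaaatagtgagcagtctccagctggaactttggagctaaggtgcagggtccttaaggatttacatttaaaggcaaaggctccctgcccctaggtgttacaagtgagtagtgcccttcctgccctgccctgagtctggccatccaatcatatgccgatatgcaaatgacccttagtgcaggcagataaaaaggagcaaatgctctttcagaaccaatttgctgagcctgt
Rarb: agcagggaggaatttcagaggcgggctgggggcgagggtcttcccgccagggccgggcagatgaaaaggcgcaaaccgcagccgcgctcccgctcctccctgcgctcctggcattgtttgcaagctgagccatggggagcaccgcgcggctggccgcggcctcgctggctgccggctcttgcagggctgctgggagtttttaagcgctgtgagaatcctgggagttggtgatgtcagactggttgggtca

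All 9 genes had a promoter window of 300 bases in RefSeq, 250 before and 50 after the start (1 window per gene), and each was searched on both strands for a direct repeat of a receptor half-site. A half-site read AGGTCA in its consensus form. The variant that reads AGTTCA was also accepted, as was the variant that reads GGGTCA and the variant that reads GGTTCA. The repeats searched held 5, 2 or 1 bases between their half-sites. Only the Rarb window among the 9 held one. It was a repeat with a spacer of 5 bases on the plus strand, from base 25 to base 41 after the listed start, and is printed with both half-sites in capitals within 30 bases at chr15:11336410-11336439.
Rarb repeat: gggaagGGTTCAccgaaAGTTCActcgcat
Such a repeat with 5 bases between its half-sites was present in 128 of 33469 rat promoter windows of that length (0.382%). Repeats with 2 bases between were in 0.17% and those with 1 base in 0.233%. The windows of the members differed in base composition. That of Aldh1a1 had 48.3% G and C and 1 CpG dinucleotide, while that of Aldh1a2 had 76.0% and 47 CpG, beside medians of 51.7% and 7 CpG over all promoters.

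The libraries held between 10057787 and 16002410 counted read pairs per rat, with a median of 13038873. Values are given as normalized counts, in which each count was scaled to a common library size after adjustment by the trimmed mean of M values (TMM), and 9 of 9 genes passed the filter of more than 10 reads in at least 6 of 12 rats in each comparison. A gene was counted as called where the quasi-likelihood test of edgeR, fitted on the whole table, gave a p below 0.05 before adjustment. After Benjamini-Hochberg adjustment this test called 0 genes in each of the 3 comparisons, while DESeq2 called 12 and edgeR's likelihood ratio test 13 in bPYX+GFP versus naive. Groups were taken from the headings of the count table. The sample headings and rat numbers of that table gave the same group for 18 of 18 columns. The separate file of each rat is recorded under a title of another group for 17 of the 18 rats, and values by those titles are given as an alternative. By the headings, every file titled naive belonged to an injured rat, so the title groups mix the conditions. The markers of the labelled tissue were abundant, since 8 genes of sensory neurons summed to between 49938 and 89091 normalized counts in every rat and 5 genes of skeletal muscle to between 16.8 and 124. Rats 57 (bPYX+GFP) and 11 (bPYX+NT3) stood apart, with the lowest shares of reads that met no listed gene, 31.7% and 30.8%, against 32.5% to 34.6% in the others.

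**Figure D1:**
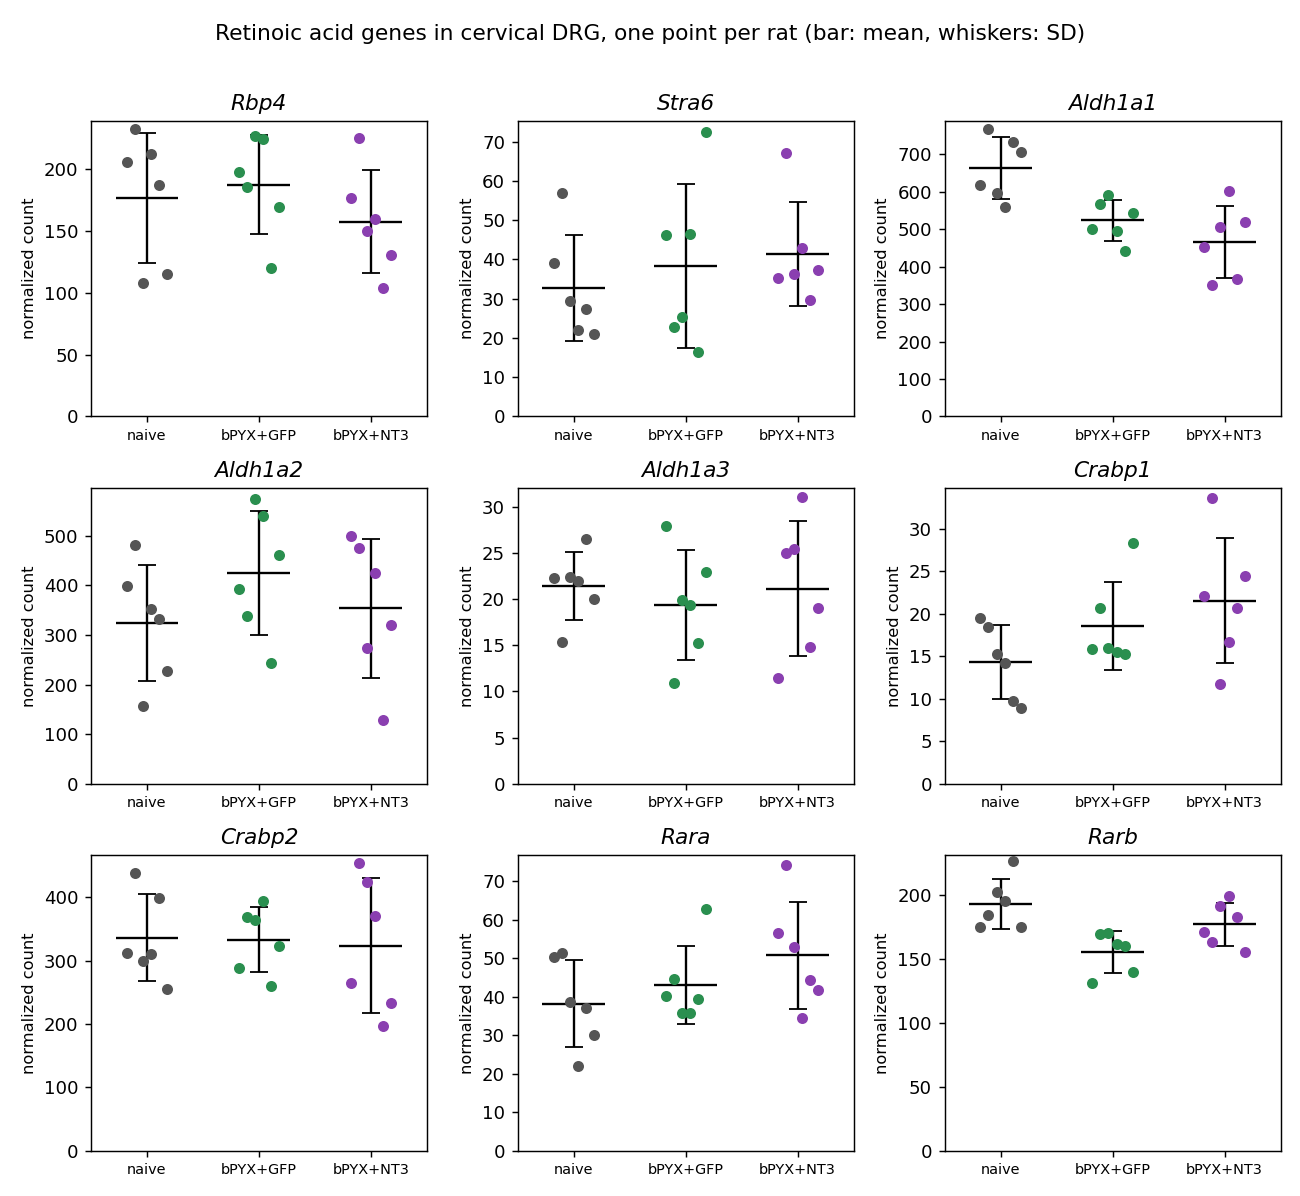
Normalized counts (vertical axes, each from 0) of the 9 retinoic acid genes in each of the 18 rats, by group, with the mean as a bar and the SD as whiskers (n = 6 per group). The 6 bPYX+GFP rats lie below all 6 naive rats for Rarb, and Aldh1a1 has its lowest values in the injured groups. The groups overlap for the other genes, with 4 of 6 bPYX+NT3 rats above all naive rats for Crabp1 and 3 of 6 for Rara.

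The synthesis genes are taken first. Aldh1a1, a cytosolic retinaldehyde dehydrogenase, was the gene by which this set was chosen. In naive rats its normalized count ran from 559 to 768 with a median of 662. In bPYX+GFP rats it ran from 443 to 592 with a median of 522, and in bPYX+NT3 rats from 352 to 601 with a median of 479. The groups overlapped: 4 of 6 bPYX+GFP rats and 5 of 6 bPYX+NT3 rats were below the lowest naive rat, and 6 of 6 in each injured group were below the naive median. None of the 6 lowest rats of the series was naive, and the 4 highest were all naive. The means were 663 ± 83.3 in naive, 523 ± 54.0 in the bPYX+GFP group and 466.3 ± 95.6 in the bPYX+NT3 group (SD, n = 6 each). The fitted log2 difference was -0.34 ± 0.09 (SE) for bPYX+GFP and -0.51 ± 0.13 for bPYX+NT3, both against the same naive rats, and -0.17 ± 0.13 for bPYX+NT3 against bPYX+GFP. Leaving out each rat in turn moved the first between -0.38 and -0.29 and the second between -0.60 and -0.44. Grouping the files by their recorded titles gave 0.18 and 0.27. Because Aldh1a1 was chosen for its lower counts in these rats, the SEs and ranges are description and give no support to the difference.

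The gene whose deviations from the group means were most like those of Aldh1a1 over the 18 rats was Dcn, which encodes decorin, a collagen-binding proteoglycan of connective tissue (Pearson's r = 0.902 on the log2 scale of counts per library size (log2 CPM), among 11543 genes). The next 2 were identifiers with no symbol in the reference used, NM_001107954 (r = 0.887) and NM_001167842 (r = 0.881). These are descriptions of 18 libraries that share depth and tissue composition. Dcn was one of the fixed markers of fibroblasts and meninges. In the list of 10 such markers, 8 identifiers passed the filter in bPYX+GFP versus naive and 3 of them were called, Col1a1, Col3a1 and Lum, all 3 lower in bPYX+GFP, where 2.52% of all genes tested were called as lower. Dcn itself had a log2 difference of -0.11 there and was not called. Of the other markers, 3 had higher fitted levels in bPYX+GFP and were not called, with log2 differences from 0.07 (Foxc1) to 0.36 (Foxc2). In bPYX+NT3 versus naive 3 of 8 were called, Col1a1, Col3a1 and Dcn, again lower, beside 2.92% of all genes tested, and 7 of 8 had a lower fitted level. The summed normalized count of the list ran from 29113 to 39314 in naive, from 26833 to 35141 in the bPYX+GFP and from 21592 to 37495 in the bPYX+NT3 group. The part of these cells in the Aldh1a1 difference was not tested.

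Aldh1a2, the retinaldehyde dehydrogenase known from mesoderm and meninges, varied widely between rats. Its normalized count ran from 157 to 482 in naive rats (median 342), from 244 to 574 in bPYX+GFP rats (median 427) and from 129 to 499 in bPYX+NT3 rats (median 373). The SD within groups on the log2 scale, 0.60, was larger than that of 96.3% of the genes tested in all comparisons, whose median was 0.21. The difference from naive was 0.39 ± 0.25 (SE) on the log2 scale in bPYX+GFP, with a 95% interval from -0.15 to 0.94 (edgeR p = 0.141, two-sided exact permutation p = 0.197). In bPYX+NT3 it was 0.12 ± 0.30 (p = 0.691, exact permutation p = 0.827). The 2 injured groups differed by -0.26 ± 0.29 (p = 0.374, exact permutation p = 0.392). The spread between rats thus exceeded each difference between groups. Genes whose deviations were like those of Aldh1a2 included Gjb6 (r = 0.916) and Slc22a8 (r = 0.9), which encode a connexin and an organic anion transporter.

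Aldh1a3 was near the lower end of detection, with 10 to 32 reads in a rat. Its normalized count ran from 15.4 to 26.5 in naive rats (median 22.2), from 10.9 to 27.9 in bPYX+GFP rats (median 19.7) and from 11.5 to 31.0 in bPYX+NT3 rats (median 22.0). The groups overlapped throughout. The log2 difference from naive was -0.13 ± 0.22 (SE) in bPYX+GFP (edgeR p = 0.568, exact permutation p = 0.426) and -0.02 ± 0.24 in bPYX+NT3 (p = 0.923, exact permutation p = 0.762). The 95% interval of the former reached from -0.61 to 0.35, so no difference and any change within these limits were compatible with the data.

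**Figure D2:**
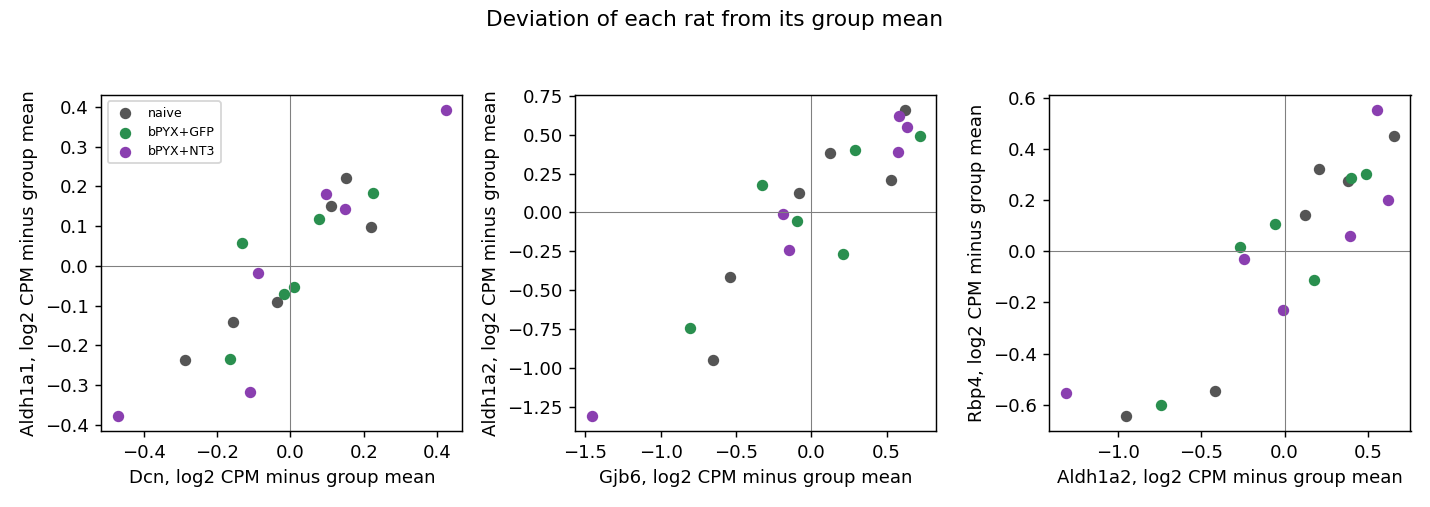
Deviation of each rat from its group mean in log2 CPM, for Aldh1a1 against Dcn, Aldh1a2 against Gjb6 and Rbp4 against Aldh1a2 (1 point per rat, 18 rats, coloured by group). The points of each pair lie along a rising line, with r = 0.902, 0.916 and 0.892. The second gene of each pair was among the 3 most like the first of 11543 genes, so a rising line was selected for. Each group was centred on its own mean, so the mixing of the groups along the line follows from the calculation and is not a result.

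The uptake genes did not separate the groups. Rbp4, the retinol carrier of blood plasma, had normalized counts from 108 to 233 in naive (median 196), from 121 to 227 in bPYX+GFP (median 192) and from 104 to 226 in bPYX+NT3 rats (median 155). The log2 difference was 0.09 ± 0.20 (SE) for bPYX+GFP against naive (edgeR p = 0.664, exact permutation p = 0.677) and -0.16 ± 0.22 for bPYX+NT3 against naive (p = 0.461, exact permutation p = 0.561). Between the injured groups it was -0.25 ± 0.19 (p = 0.216, exact permutation p = 0.236), and with rats 57 and 11 left out -0.41 ± 0.18 (p = 0.0363), a choice made after the data were seen. Rbp4 and Aldh1a2 deviated from their group means together (r = 0.892), and of 11543 genes only Fmod (r = 0.913), a collagen-binding proteoglycan, and Slc6a12 (r = 0.898), a betaine and GABA transporter, were more like Rbp4. Crabp2 was the next member in likeness to Rbp4, with r = 0.698.

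Stra6, the membrane receptor for retinol bound to Rbp4, had 13 to 86 reads in a rat. Its normalized count ran from 21.1 to 56.9 in naive rats (median 28.4), from 16.5 to 72.5 in bPYX+GFP rats (median 35.7) and from 29.6 to 67.1 in bPYX+NT3 rats (median 36.7). All 6 bPYX+NT3 rats were above the naive median, but 1 of 6 was above the highest naive rat. The log2 difference from naive was 0.24 ± 0.35 (SE) in bPYX+GFP (edgeR p = 0.501, exact permutation p = 0.729) and 0.33 ± 0.27 in bPYX+NT3 (p = 0.238, exact permutation p = 0.201). The highest rats were 57 and 11. Without rat 57 the bPYX+GFP difference was -0.06, and without rat 11 the bPYX+NT3 difference was 0.13. The 3 genes most like Stra6 were Tnnt2 (r = 0.948), Acp6 (r = 0.935) and Glis2 (r = 0.926).

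Of the binding proteins, Crabp1 rested on 8 to 43 reads in a rat and Crabp2 on 200 to 581. Crabp1 had normalized counts from 8.89 to 19.5 in naive rats (median 14.7), from 15.2 to 28.3 in bPYX+GFP rats (median 15.9) and from 11.8 to 33.6 in bPYX+NT3 rats (median 21.4). Among bPYX+NT3 rats 4 of 6 were above the highest naive rat, and the lowest was below the naive median. The log2 difference from naive was 0.59 ± 0.27 (SE) in bPYX+NT3, from a mean of 14.3 ± 4.38 to one of 21.6 ± 7.39 (SD, n = 6 each). It was called by edgeR's quasi-likelihood test (p = 0.0462, adjusted p = 0.607) and not by the exact permutation test (p = 0.0736). This call was the single one among the 8 members in bPYX+NT3 versus naive, in which 6.01% of 11693 genes tested were called, 3.09% as higher in bPYX+NT3 and 2.92% as lower. It was lost in DESeq2, and in edgeR with the share of reads outside listed genes as a covariate (log2 difference 0.35) and on leaving out any of 8 of the 12 rats. Without rat 11 the difference was 0.41 and was not called. In bPYX+GFP the difference from naive was 0.38 ± 0.25 (p = 0.144, exact permutation p = 0.16), with 6 of 6 rats above the naive median. Without rat 57 it was 0.20.

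Crabp2, which is known to deliver retinoic acid to nuclear receptors, had nearly equal means in the 3 groups, at 336 ± 68.4 in naive, 333 ± 51.6 in the bPYX+GFP and 324 ± 106 in the bPYX+NT3 group (SD, n = 6 each). Its normalized count ran from 256 to 438 in naive rats (median 311), from 260 to 393 in bPYX+GFP rats (median 344) and from 197 to 453 in bPYX+NT3 rats (median 317). The log2 difference from naive was -0.01 ± 0.14 (SE) in bPYX+GFP, with a 95% interval from -0.30 to 0.28 (edgeR p = 0.955, exact permutation p = 0.978). In bPYX+NT3 it was -0.06 ± 0.20, with an interval from -0.49 to 0.38 (p = 0.79, exact permutation p = 0.68). The genes most like Crabp2 were Prg4 (r = 0.894), Bst2 (r = 0.89) and Ptafr (r = 0.883). Prg4 encodes lubricin, a lubricant of joint surfaces.

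Among the receptors, Rarb, the retinoic acid receptor whose promoter repeat is printed above, had the smallest p of the 8 tested genes in any comparison. In naive rats its normalized counts were 175, 184, 202, 195, 226 and 175 in rats 41, 42, 43, 44, 45 and 49. In bPYX+GFP rats they were 131, 169, 170, 162, 160 and 140 in rats 5, 15, 18, 21, 52 and 57. The highest bPYX+GFP rat, at 170, was below the lowest naive rat, at 175, so the groups did not overlap. In bPYX+NT3 rats they were 171, 163, 191, 199, 183 and 155 in rats 2, 11, 17, 23, 39 and 40, and 4 of 6 were above the highest bPYX+GFP rat while 3 of 6 were below the lowest naive rat.

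The Rarb mean was 193 ± 19.7 in naive and 155 ± 16.2 in bPYX+GFP rats (SD, n = 6 each), a log2 difference of -0.31 ± 0.10 (SE) with a 95% interval from -0.51 to -0.10. edgeR's quasi-likelihood test called it (p = 0.00627, adjusted p = 0.859), and the two-sided exact permutation test gave p = 0.00216, the smallest that 6 against 6 rats allow. It was the single call among the 8 members in bPYX+GFP versus naive, a set chosen with earlier results of these data known. In that comparison 3.25% of 11601 genes tested were called, 2.52% as lower in bPYX+GFP and 0.733% as higher, and 0.267% had groups that did not overlap. With each of the 12 rats left out in turn the log2 difference lay between -0.34 and -0.26 and was called in 12 of 12 fits. It was -0.28 without rat 57 and -0.30 with the share of reads outside listed genes as a covariate, and was called in both. By the recorded titles it was 0.08 and was not called. Within groups Rarb had the smallest spread of the 9 genes, an SD of 0.14 on the log2 scale, larger than that of 26.1% of the genes tested. Among markers of myelinating Schwann cells 7 of 7 had a lower mean in bPYX+GFP than in naive rats and 2 were called, Pmp22 and Egr2, and the summed level ran from 25559 to 37798 against 30062 to 46421. Pmp22 had a log2 difference from naive of -0.31 in bPYX+GFP and also in bPYX+NT3. Fitted levels in bPYX+GFP were lower for 6 of 6 macrophage, 4 of 5 satellite glia, 3 of 3 oligodendrocyte and 5 of 8 fibroblast and meninges markers tested. They were higher for 7 of 7 sensory neuron and 5 of 6 endothelial markers. The part of any of these cell types in the Rarb difference was not tested.

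In bPYX+NT3 rats the Rarb mean was 177 ± 16.9. Its log2 difference was -0.12 ± 0.09 (SE) from naive (edgeR p = 0.208, exact permutation p = 0.165) and 0.19 ± 0.10 from bPYX+GFP, with a 95% interval from -0.02 to 0.40 (p = 0.0778, adjusted p = 0.851, exact permutation p = 0.0541). The bPYX+NT3 mean thus lay between the other two and was told apart from neither. No member of the 8 was called in bPYX+NT3 versus bPYX+GFP by the quasi-likelihood test of edgeR, its likelihood ratio test or DESeq2 at that threshold, in a comparison where 1.73% of 11623 genes tested were called. With the share of reads outside listed genes as a covariate, Rarb was called in it (0.22 ± 0.09). The genes most like Rarb were Neto1 (r = 0.894), which encodes a subunit that accompanies glutamate receptors, Trim31 (r = 0.863) and Cenpu (r = 0.802).

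Rara, the other retinoic acid receptor of the set, did not show the Rarb pattern. Its normalized count ran from 22.0 to 51.5 in naive rats (median 37.9), from 35.8 to 62.8 in bPYX+GFP rats (median 39.7) and from 34.6 to 74.1 in bPYX+NT3 rats (median 48.7). The log2 difference from naive was 0.17 ± 0.22 (SE) in bPYX+GFP (edgeR p = 0.437, exact permutation p = 0.411) and 0.40 ± 0.23 in bPYX+NT3 (p = 0.0976, exact permutation p = 0.121), with 5 of 6 rats above the naive median. Without rat 57 the former was 0.02, and without rat 11 the latter was 0.26. The genes most like Rara were L3mbtl2 (r = 0.947), Def8 (r = 0.942) and Sec24c (r = 0.935).

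Rats 57 and 11 held the 2 highest values of the series for 3 of the 9 genes, Stra6, Crabp1 and Rara. Rat 57 had normalized counts of 72.5, 28.3 and 62.8 for these, and rat 11 had 67.1, 33.6 and 74.1. The other 16 rats reached at most 56.9, 24.5 and 56.5. Rarb was not among these genes, since rat 57 ranked 17 and rat 11 ranked 13 from the highest of 18. Rat 11 was the lowest of all rats for Aldh1a1 and the highest for Crabp2. These rats also had the highest shares of ambiguous reads, which fit more than one listed gene, 3.31% and 3.41%, and the highest summed sensory neuron markers of their groups, 84122 and 89091. Both were the lowest of their groups for markers of satellite glia (19214 and 19532), fibroblasts and meninges (26833 and 21592) and oligodendrocytes (153 and 133). Rat 57 was also the highest of its group for myelinating Schwann cell and skeletal muscle markers, and rat 11 for fat cell markers. The part of these library features in the levels was not tested.

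**Figure D3:**
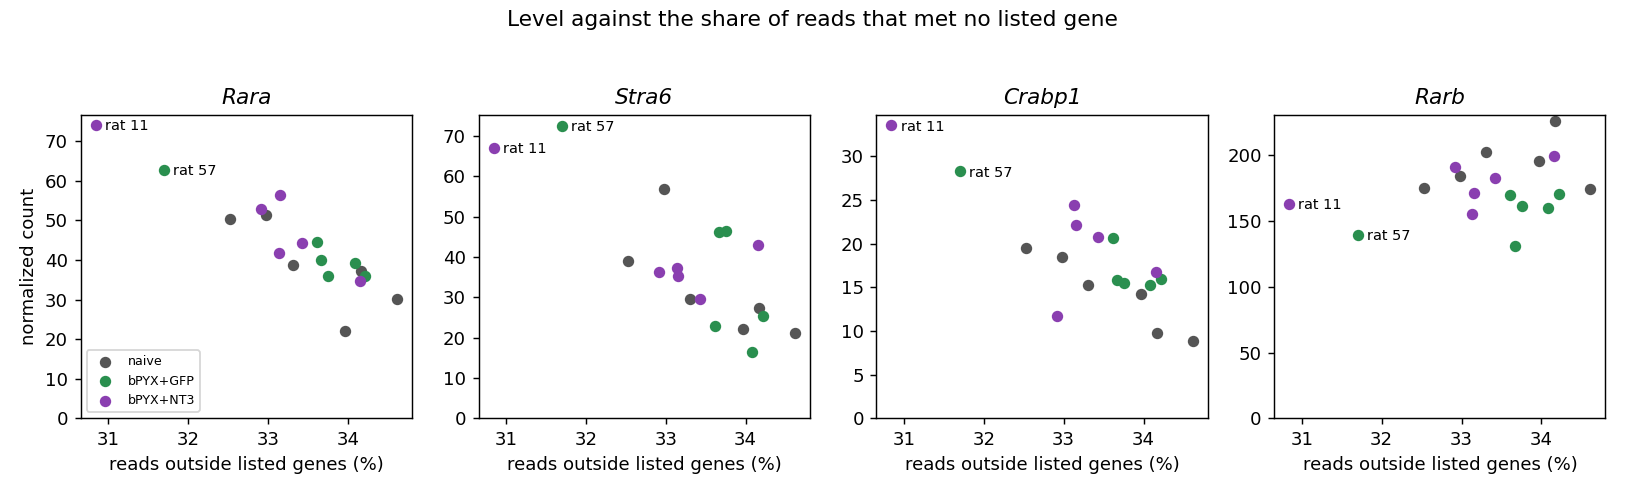
Normalized count of Rara, Stra6, Crabp1 and Rarb (vertical axes, from 0) against the percentage of reads that met no listed gene (horizontal axes), 1 point per rat, 18 rats coloured by group. Rats 57 and 11, with 31.7% and 30.8%, have the highest Rara, Stra6 and Crabp1 values, and this is not seen for Rarb.

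Among the 9 genes, the comparisons against naive share the same 6 control rats, so that their values are set side by side and not counted as separate support. Aldh1a1 had -0.34 in bPYX+GFP and -0.51 in bPYX+NT3, Rarb had -0.31 and -0.12, Crabp1 had 0.38 and 0.59, and Aldh1a2 had 0.39 and 0.12 on the log2 scale. Over the 8 genes other than Aldh1a1 the median log2 difference was 0.13 in bPYX+GFP and 0.05 in bPYX+NT3, beside medians of 0.01 and 0.00 over all genes tested. Within the set, 5 of 8 were higher and 3 lower in bPYX+GFP, and 4 of 8 were higher in bPYX+NT3.

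**Figure D4:**
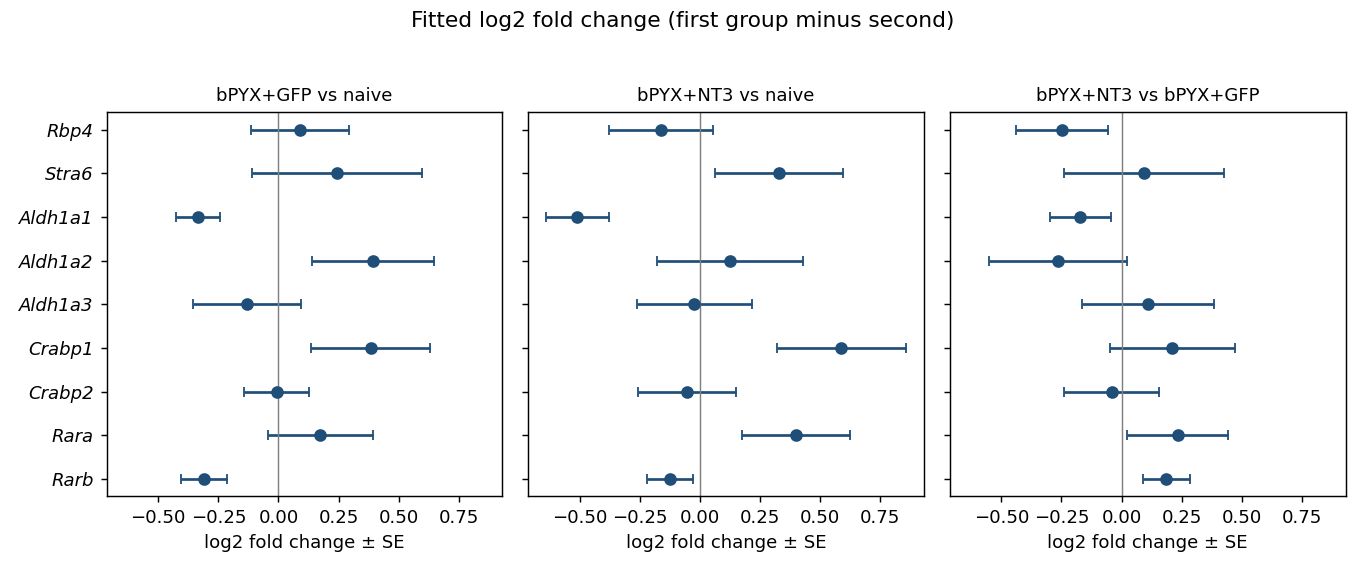
Fitted log2 fold change (horizontal axes, first group minus second) with its SE for the 9 genes in the 3 comparisons, 6 rats per group. Aldh1a1 and Rarb lie to the left of 0 in bPYX+GFP versus naive, at -0.34 and -0.31, and the Aldh1a1 value is shown as a description, since it chose the set.

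The remaining genes of retinoid metabolism and signalling were taken from a list of 59, of which 47 had an identifier in the table and 39 identifiers passed the filter in each comparison. Of these 39, 2 were called in bPYX+GFP versus naive (1 higher, 1 lower), 4 in bPYX+NT3 versus naive (all 4 lower) and 1 in bPYX+NT3 versus bPYX+GFP (higher). Over all genes tested 3.25%, 6.01% (2.92% as lower) and 1.73% were called in these comparisons. The adjusted p of each was 0.607 or more. Reads are not corrected for transcript length here, so a gene with the most reads in its list need not have the highest level. The median log2 difference over the list was 0.00, 0.01 and -0.01, beside 0.01, 0.00 and 0.00 over all genes tested.

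In the group for retinol binding, transport and storage, 8 identifiers were tested. Against naive, 1 was called in bPYX+GFP and 2 in bPYX+NT3, all lower. Over all genes tested, 2.52% and 2.92% were called as lower in these comparisons. Lpl, which encodes lipoprotein lipase and can free retinol from lipoprotein particles, had 642 ± 142 normalized counts in naive, 485 ± 119 in the bPYX+GFP and 423 ± 91.2 in the bPYX+NT3 group (SD, n = 6 each). It was called against naive in both, with log2 differences of -0.40 ± 0.17 (SE, edgeR p = 0.0328, exact permutation p = 0.0714) and -0.60 ± 0.17 (p = 0.00307, exact permutation p = 0.00649). Lpl is also made in large amounts by fat cells. The summed level of 5 fat cell markers ran from 88.5 to 337 in naive, from 80.4 to 407 in the bPYX+GFP and from 97.9 to 158 in the bPYX+NT3 group, and Adipoq, a hormone gene of fat cells, ran from 8.14 to 264 in naive, from 5.30 to 272 in the bPYX+GFP and from 8.16 to 55.9 in the bPYX+NT3 group. Of the 5 fat cell markers 2 passed the filter, Adipoq and Lipe, and they differed in direction in bPYX+NT3 versus naive. Adipoq had a log2 difference of -1.85 there and Lipe one of 0.29. In bPYX+GFP versus naive both had higher fitted levels, with 0.27 for Adipoq and 0.15 for Lipe. The part of fat cells in the Lpl values was not tested. Lrp2, an endocytic receptor that takes up retinol carriers, was called in bPYX+NT3 versus naive at 43.6 ± 10.7 against 60.4 ± 3.69 normalized counts (log2 difference -0.47 ± 0.16, edgeR p = 0.0108, exact permutation p = 0.00649).

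Of the oxidoreductases of retinol and retinal, 11 were tested and 2 called. Both were lower in bPYX+NT3 versus naive, where 2.92% of all genes tested were called as lower. Rdh14, a retinol dehydrogenase, had 489 ± 47.5 against 557 ± 56.8 normalized counts (log2 difference -0.19 ± 0.09, edgeR p = 0.0471, exact permutation p = 0.0541). Aox1, an aldehyde oxidase that can oxidise retinal and had the most reads of this group, had 844 ± 167 against 1000.4 ± 67.8 (-0.24 ± 0.11, edgeR p = 0.048, exact permutation p = 0.0671). Neither was called with the share of reads outside listed genes as a covariate.

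Of the genes for retinoic acid degradation and of Fabp5, a fatty acid binding protein that also binds retinoic acid, 2 were tested and none was called. Fabp5 had 1864 ± 315 normalized counts in naive, 1867 ± 241 in the bPYX+GFP and 2134 ± 421 in the bPYX+NT3 group. Of receptors and cofactors 8 were tested and none was called, and Ncor1, a corepressor, had the most reads with 2531 ± 147, 2511 ± 116 and 2412 ± 254. Among target genes of retinoic acid 13 identifiers were tested. Of these, 1 was called in bPYX+GFP versus naive and 1 in bPYX+NT3 versus bPYX+GFP, both higher. Over all genes tested, 0.733% and 1.08% were called as higher in these comparisons. Rarres1, named for its response to retinoic acid receptors, was called in bPYX+GFP versus naive at 1309 ± 69.1 against 1194 ± 103 (0.14 ± 0.06, edgeR p = 0.0438, exact permutation p = 0.0433). Tgm2, tissue transglutaminase, was called in bPYX+NT3 versus bPYX+GFP at 330 ± 113 against 230 ± 57.4 (0.52 ± 0.23, edgeR p = 0.0397, exact permutation p = 0.0909). Ret, the receptor kinase for GDNF family ligands, had the most reads of the target genes over its 2 identifiers, 8303 ± 852, 8278 ± 656 and 8226 ± 973, and reads that fit both of its identifiers may have been left uncounted.

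The other aldehyde dehydrogenases were set beside the 3 members of their superfamily. Of 16 genes listed 15 had an identifier, and 13 were tested in bPYX+GFP versus naive and 14 in the other comparisons. None was called against naive in either injured group by edgeR's quasi-likelihood test, where the background was 3.25% and 6.01%. In bPYX+NT3 versus bPYX+GFP 2 of 14 were called, both higher in bPYX+NT3, where 1.08% of all genes tested were called as higher. Aldh1b1, a mitochondrial form, had 43.96 ± 8.04 against 32.9 ± 7.14 normalized counts (0.41 ± 0.18, edgeR p = 0.0392, exact permutation p = 0.0281). Aldh1l2, the mitochondrial enzyme that oxidises formyl-tetrahydrofolate, had 109 ± 39.7 against 74.3 ± 11.0 (0.55 ± 0.21, p = 0.022, exact permutation p = 0.0411). Aldh3a2, an oxidase of fatty aldehydes with the most reads of the list, had 2336 ± 74.0, 2351 ± 42.995 and 2283 ± 84.5 in naive, bPYX+GFP and bPYX+NT3 rats. With each of the 12 rats left out in turn, the calls against naive held in 12 of 12 fits for Lpl and Lrp2 in bPYX+NT3, in 6 for Lpl in bPYX+GFP, and in 5 for Rdh14, 4 for Aox1 and 5 for Rarres1. Those between the injured groups held in 5 for Tgm2, 5 for Aldh1b1 and 10 for Aldh1l2. Aldh1a7, a rodent gene close in sequence to Aldh1a1, was not analysed here, and reads that fit both genes equally well would have been left out as mapping to several locations.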

How the data were processed

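Poly(A) RNA of 18 rats was sequenced by the study as 50 bp read pairs from a stranded library. Per the labels and the methods of the authors, reads were aligned to Rnor_6.0 (rn6) with TopHat2, duplicates were removed with Picard and read pairs were counted per RefSeq identifier with HTSeq; bcl2fastq 1.8.4 made the read files. The deposited values are raw counts. Removing duplicates caps the most abundant RNAs, and ambiguous pairs and pairs with several locations were not counted. Rats were grouped by the headings of the series table, and each of the 18 separate files was identical to the table column of its rat number. Symbols came from RefSeq (14187 of 15075 identifiers matched). Counts were analysed in R 4.3.3 with edgeR 4.0.16 (TMM, estimateDisp, glmQLFit, glmQLFTest), 2 groups per fit, on identifiers that exceeded 10 reads in 6 or more of 12 rats, with Benjamini-Hochberg adjustment over all of them. The SE is the log2 difference over the root of F. Exact two-sided permutation tests ran on log2 CPM (prior count 2, Python 3). DESeq2 1.42.0 was an alternative. The fit was tested on simulated counts. The members and gene lists were chosen with earlier results of these data known. Named genes were the 9 members, genes of the retinoid and aldehyde dehydrogenase lists called in a comparison, the gene with the most reads in each list, and for members with a mean of at least 20 normalized counts the 3 genes most alike, of which 1 is not reported here. Alternatives were another test, scaling or filter, 1 fit of 18 rats, a covariate, the titles' grouping and leaving out rats. Depth ran from 10057787 to 16002410, so a gene with few reads carries more counting error. The intervals give the uncertainty of the fitted difference between groups, to which the spread between rats contributes.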

Additional observations from a re-analysis of the deposited data

Results flagged for a closer look

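Of 27 groups of 6 rats examined (9 genes in 3 groups), 2 held a rat whose gap to its nearest neighbour was large relative to the range of its group, where chance gives about 1 in 20. Stra6 in bPYX+NT3 rat 11 had a normalized count of 67.1, while the other 5 rats lay between 29.6 and 42.96. Rara in bPYX+GFP rat 57 had 62.8, while the other 5 lay between 35.8 and 44.5. These are the rats with the lowest shares of reads outside listed genes, and the part of that share in these values was not tested.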

How the results depend on the processing

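No paired analysis was possible because each column of the table belongs to a rat of its own and the replicate numbers of the titles only name samples. Of 8 members other than Aldh1a1, 1 was called in bPYX+GFP versus naive, 1 in bPYX+NT3 versus naive and 0 in bPYX+NT3 versus bPYX+GFP. By the recorded titles these counts were 0, 0 and 0, with the share of reads outside listed genes as a covariate 1, 0 and 1, in DESeq2 1, 0 and 0, and 1 in the last without rats 57 and 11. Leaving out 1 rat gave 1, 0 to 2 and 0 to 1. Of the pathway list 2, 4 and 1 were called. The counts were 1, 3 and 2 in 1 fit over the 18 rats, 4, 3 and 0 with the covariate, 1, 2 and 2 by the titles, 0 to 3, 2 to 6 and 0 to 6 on leaving out 1 rat (6 without rat 57), and 2 in the last without rats 57 and 11. The number called over all genes moved as well. In bPYX+NT3 versus bPYX+GFP it was 2291 of 11556 without rat 57 and 1462 of 11477 without rats 57 and 11, beside 201 of 11623 in the main fit. In bPYX+GFP versus naive it was 848 of 11601 with the covariate, beside 377 in the main fit. The cause was not tested.

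The title groups mix the conditions given by the headings, so sign changes under them do not measure how stable the differences are. By the titles the log2 difference changed sign for Rbp4 (-0.14), Aldh1a1 (0.18), Aldh1a2 (-0.16), Crabp1 (-0.088), Rara (-0.26), Rarb (0.076) and Rarres1 (-0.0093) in bPYX+GFP versus naive. It did so for Stra6 (-0.29), Aldh1a1 (0.27), Aldh1a2 (-0.52), Aldh1a3 (0.11), Crabp1 (-0.39), Rara (-0.40), Rarb (0.14), Lpl (0.43), Rdh14 (0.12) and Aox1 (0.18) in bPYX+NT3 versus naive, and for Stra6 (-0.38), Aldh1a1 (0.094), Crabp1 (-0.31), Rara (-0.15), Aldh1b1 (-0.31) and Aldh1l2 (-0.17) in bPYX+NT3 versus bPYX+GFP. The covariate turned Aldh1a2 in bPYX+NT3 versus naive (-0.0043) and Stra6 between the injured groups (-0.12). Leaving out 1 rat turned small differences. In bPYX+GFP versus naive these were Rbp4 (-0.017 to 0.18), Stra6 (-0.065 to 0.48) and Crabp2 (-0.075 to 0.081). In bPYX+NT3 versus naive they were Aldh1a2 (-0.018 to 0.30), Aldh1a3 (-0.15 to 0.11) and Crabp2 (-0.18 to 0.057). In bPYX+NT3 versus bPYX+GFP they were Stra6 (-0.12 to 0.39), Aldh1a3 (-0.018 to 0.24) and Crabp2 (-0.17 to 0.069). Crabp1 and Aldh1a3 rested on 8 to 43 reads in a rat, which limits what their values can show.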
